A study of Haplochromis burtoni and Lepidiolamprologus elongatus and Tropheus moorii with 25 samples.

Results

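The intestines of 6 species of the cichlid tribe Lamprologini were set against those of 19 other African cichlid species, as 6 of 25 single-cell RNA-seq libraries. The 6 libraries were chosen by the species in their labels: Lepidiolamprologus elongatus, Julidochromis ornatus, Lepidiolamprologus attenuatus, Neolamprologus brevis, Telmatochromis vittatus and Neolamprologus brichardi. Values of single Lamprologini libraries are given in this species order unless the species is named. The other 19 libraries came from Haplochromis burtoni, Tropheus moorii, Callochromis pleurospilus, Cyprichromis coloratus, Perissodus microlepis, Petrochromis orthognathus, Boulengerochromis microlepis, Eretmodus cyanostictus, Triglachromis otostigma, Xenotilapia spiloptera, Limnotilapia dardennii, Oreochromis niloticus, Trematocara zebra, Haplotaxodon microlepis, Cyphotilapia frontosa, Benthochromis horii, Bathybates ferox, Shuja horei and Simochromis diagramma. Each library was the only one of its species, so a species, the fish it came from and the preparation of its cells cannot be told apart. The labels give no age, sex, diet or treatment, and all intestines were dissociated with dispase II, strained and loaded for 3′ droplet sequencing.

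Lamprologini are a species-rich tribe of Lake Tanganyika that spawn on a substrate and guard their eggs and young there, whereas most other cichlids of the lake carry their young in the mouth. The tribes descend from a shared radiation, so the 6 species are related to each other and are not independent samples of substrate brooding; Boulengerochromis microlepis, in the other group, is also a substrate brooder. The intestinal lining of fish combines absorptive enterocytes, mucus-making goblet cells and hormone-making enteroendocrine cells with a large population of leukocytes that sit between and below them. Shared ancestry was not modelled. The p-values below rest on the spread between libraries and treat related species as independent units.

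For each library, the transcript tags (UMIs, each marking 1 captured molecule) were summed over barcodes holding 500 UMIs or more and 250 genes or more, and levels are given as CPM, the counts of a feature scaled to a common library total. The Lamprologini libraries kept 3261 to 5196 cells with 7944076 to 18373378 UMIs, against 1072 to 6928 cells with 6927767 to 31659955 UMIs in the other cichlids. The median library held 12236177 UMIs in Lamprologini and 18812494 in the others. Median UMIs per cell were 1646 to 2313.5 in Lamprologini (median library 1949) and 1443 to 5957 in the others (median library 2628). The gene limit removed 37.3% of the barcodes of Julidochromis ornatus (the lowest share among Lamprologini was 2.95%), against 0.406% to 25.9% in the other group. All libraries were counted on the same list of 42622 features, so a species that differs more from the reference could have fewer of its reads counted. Expected features in 5000000 UMIs averaged 21046 ± 862 in Lamprologini and 21013 ± 816 in the other cichlids (SD, n = 6 and 19; exact permutation test, 2-sided, p = 0.932, 0.932 when adjusted over 4 library measures). This measure draws only on UMIs already counted, so it cannot show how many reads failed to match the reference. The mitochondrial share of UMIs averaged 5.77% ± 2.44 in Lamprologini and 6.53% ± 2.61 in the others (exact permutation test, 2-sided, p = 0.536, adjusted 0.715). This share was taken after the gene limit. Over all its deposited barcodes Julidochromis ornatus had a mitochondrial share of 19.4%, the highest of all libraries, against 6.13% after the limit. No pair of libraries among 300 shared more than 17 barcodes, and doublets were not removed.

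Markers of the intestinal lining and of leukocytes were present in every library, as its label intestine implies. The epithelial adhesion gene epcam stood at 415 to 1614 CPM in Lamprologini and 453 to 2813 CPM in the other cichlids, and the pan-leukocyte gene ptprc at 210.2 to 340.5 CPM in Lamprologini and 51.2 to 383 CPM in the others. Genes of the muscle wall were scarce: 5 smooth muscle markers summed to 3.69 to 42.5 CPM in Lamprologini and 3.13 to 87.4 CPM in the others.

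The 6 Lamprologini intestines were nearer to each other in their whole expression profile, on average, than to the other libraries. The distance between libraries was taken as 1 minus Spearman's rho over 7553 genes with a mean of at least 10 CPM. It averaged 0.243 (SD 0.0494) over the 15 pairs of Lamprologini, against 0.357 over the 114 pairs of a Lamprologini and another library and 0.325 over the pairs of other cichlids. Over all ways to choose 6 of the 25 libraries, the exact permutation test (1-sided, for a smaller mean) gave p = 2.26e-05: of 177100 choices, 4 had a mean as small or smaller, the Lamprologini among them. The closest pair was the congeners Lepidiolamprologus attenuatus and Lepidiolamprologus elongatus, at 0.137, followed by Neolamprologus brevis and Lepidiolamprologus attenuatus at 0.184 and by Telmatochromis vittatus and Julidochromis ornatus at 0.195. The congeners Neolamprologus brichardi and Neolamprologus brevis lay at 0.246, and Neolamprologus brichardi and Julidochromis ornatus were the farthest pair, at 0.332. The nearest library was another Lamprologini for 6 of the 6 Lamprologini and for 0 of the 19 other cichlids. Even so, 5 of the 19 lay nearer on average to the Lamprologini than to their own group, such as Callochromis pleurospilus at 0.264 to Lamprologini and 0.362 to the other cichlids, and Petrochromis orthognathus at 0.314 and 0.387. All 5 had a higher share of cells carrying leukocyte markers than the median of the other group, 58.5% in Callochromis pleurospilus and 49.9% in Petrochromis orthognathus; the part of cell makeup in the distances was not tested. With congeners merged to 1 unit per genus, the mean distance among the 4 Lamprologini genera was 0.222 (exact permutation test, 1-sided, p = 0.000226). The Lepidiolamprologus and Neolamprologus units each summed the counts of both congeners, whereas every other unit was a single library. The effect of this pooling on the distance was not tested.

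Cells carrying leukocyte markers made up more of the Lamprologini libraries, and cells carrying epithelial markers less. A cell was called a leukocyte-marker cell with at least 3 UMIs of a 16-gene leukocyte list and at least 3 times its UMIs of a 14-gene epithelial list, and an epithelial-marker cell with the lists exchanged. Leukocyte-marker cells were 61.8%, 60.7%, 58.4%, 52.8%, 65.8% and 45.5% of the cells in the Lamprologini libraries, against a range of 9.88% to 58.5% with a median of 33.3% in the other cichlids. All 6 Lamprologini lay above the median of the other group, and the groups overlapped. The means were 57.5% ± 7.28 in Lamprologini and 36.8% ± 13.7 in the others (SD, n = 6 and 19), a difference of 20.7 percentage points (exact permutation test, 2-sided, p = 0.00178, adjusted over 4 library measures 0.00714). Epithelial-marker cells were 18.1%, 10.5%, 17.8%, 22.0%, 16.8% and 35.2% in the Lamprologini, against 11.04% to 56.8% with a median of 36.8% in the other cichlids, a difference in means of -16.8 points (20.1% ± 8.32 and 36.9% ± 13.9; exact permutation test, 2-sided, p = 0.0111, adjusted 0.0222). Without Julidochromis ornatus this difference was -14.9 points and missed the threshold after adjustment (exact permutation test, p = 0.0335, adjusted 0.0670). None of the 6 lay above the other group's median. Neolamprologus brichardi had the fewest leukocyte-marker and the most epithelial-marker cells of the 6. Of all 101710 kept cells, 26219 belonged to neither class.

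**Figure D1:**
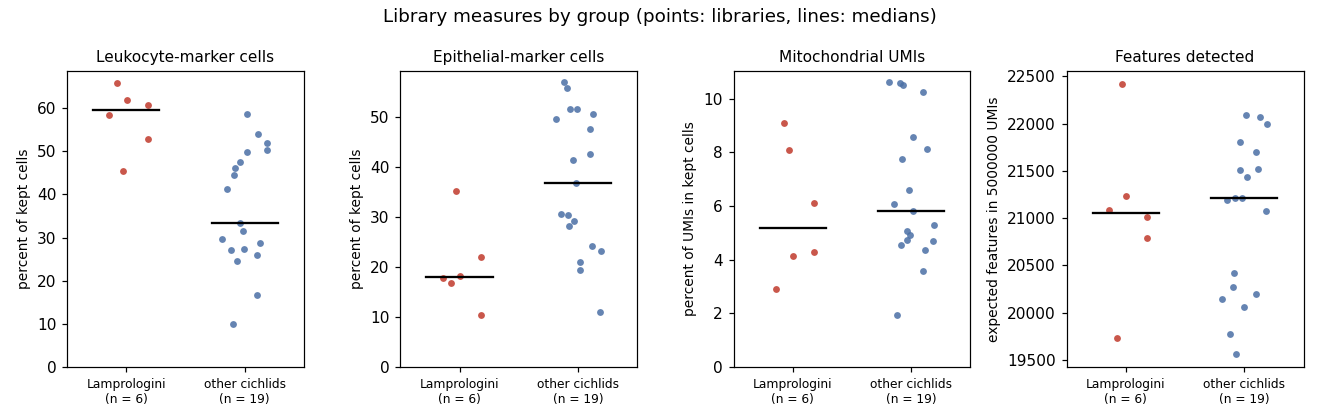
Shares of leukocyte-marker cells, epithelial-marker cells and mitochondrial UMIs (percent) and expected features in 5000000 UMIs, with 1 point per library, Lamprologini left and other cichlids right, and lines at group medians. The 6 Lamprologini libraries sit between 45.5% and 65.8% for leukocyte-marker cells and between 10.5% and 35.2% for epithelial-marker cells. The groups overlap in every panel.

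These shares move with the groups beside every gene result that follows. The leukocyte list summed to 1904 to 2556 CPM in Lamprologini and 325 to 2769 CPM in the other cichlids, with 6 of 6 Lamprologini above the other group's median, and 5 of its 16 members rose and 0 fell (3 without each of Lepidiolamprologus elongatus, Julidochromis ornatus, Lepidiolamprologus attenuatus and Telmatochromis vittatus). The epithelial list summed to 1594 to 3634 CPM in Lamprologini and 1926 to 6711 CPM in the others, with 0 of 6 above that median. Its 14 members held 0 that rose and 2 that fell, the goblet-cell disulfide isomerase agr2 and the splicing factor esrp1. In sums over a whole library, fewer cells of a type and less RNA per cell cannot be told apart. Each result was also computed within epithelial-marker cells, within leukocyte-marker cells, and on whole libraries with the log ratio of the leukocyte to the epithelial list as a covariate. Members of these lists, such as lck, cd3e, ikzf1, cxcr4, agr2 and esrp1, are part of that covariate, so its fit is no independent test of them. Some genes count in more than 1 list. Among them, lck, cd3e, cd247 and ccr7 are also in the T cell list, and agr2 is also in the goblet list. The gene cxcr4 is also among the cytokines, chemokines and receptors, and il17rb is in that list and in the tuft cell list. The counts of these lists are therefore not independent of each other. Each marker class pools cell types, and leukocyte-marker cells were admitted by genes such as lck, cd3e and cxcr4 that were themselves higher in Lamprologini. The makeup within a class was not measured, so fits within it do not separate makeup from RNA per cell either.

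Between the groups, 19049 features had enough counts to test with edgeR's quasi-likelihood test, at a Benjamini-Hochberg adjusted p of 0.05. Of these 1044 were higher (5.48% of those tested) and 933 lower (4.9%) in Lamprologini, 10.4% in either direction, and 754 and 709 of them differed at least 2-fold. The 5.48% and 4.9% are the shares to set beside each whole-library list count. Features with a gene name gave 406 higher and 466 lower of 8470, and features known only by a LOC identifier 638 and 467 of 10579. The median log2 fold change over all features was -0.15, and it was -0.07 with DESeq2's size factors. Within epithelial-marker cells 243 of 16012 features were higher (1.52%) and 221 lower (1.38%), 2.9% in either direction. DESeq2 called 472 higher and 703 lower there, a different balance. Within leukocyte-marker cells 668 of 13487 were higher (4.95%) and 454 lower (3.37%), 8.32% in either direction, against 883 higher and 1026 lower with DESeq2. With the makeup covariate, 282 whole-library features were higher (1.48%) and 273 lower (1.43%), 2.91% in either direction. Of the features higher in whole libraries, 141 of the 835 tested in epithelial-marker cells and 460 of the 899 tested in leukocyte-marker cells were called the same way there; of those lower, 173 of 857 and 273 of 708 were. Leaving out 1 Lamprologini library moved these counts: without Julidochromis ornatus 479 features were higher and 327 lower, without Telmatochromis vittatus 587 and 332, without Lepidiolamprologus elongatus 687 and 379. Without Lepidiolamprologus attenuatus 447 features were lower, and without Neolamprologus brevis 608. Complete separation was rare, with all 6 Lamprologini above all 19 others for 31 features (0.163%) and below them for 10 (0.0525%).

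T cell genes rose together in the Lamprologini libraries. Of 10 tested members of a T cell list, 7 rose and 0 fell, with a median log2 fold change of 1.51 beside -0.15 for all features. The kinase lck, which relays the first signal from the T cell receptor, stood at 265, 269, 216, 118, 283 and 54.2 CPM in the Lamprologini, against 7.55 to 116 CPM with a median of 19.6 in the other cichlids. Its log2 fold change was 3.02 ± 0.38 (SE, edgeR adjusted p = 2.50e-05); 5 Lamprologini libraries lay above every other library, and Neolamprologus brichardi within their range. The transcription factor bcl11b, needed for T cell commitment in mammals, stood at 184, 236, 139, 96.1, 261 and 29.7 CPM in Lamprologini, against 5.20 to 69.2 CPM with a median of 20.1 in the others (log2 fold change 2.81 ± 0.39, edgeR adjusted p = 8.69e-05). Here too, Neolamprologus brichardi alone of the 6 lay inside the other group's range. The transcription factor tcf7, active in early and long-lived T cells, had 195, 238, 162, 81.6, 403 and 61.7 CPM in Lamprologini, against 21.9 to 129 CPM with a median of 44.0 in the others (1.97 ± 0.35, edgeR adjusted p = 0.000974). The receptor chain cd3e rose by 1.42 on the log2 scale, the regulatory T cell factor foxp3 by 1.84, the kinase itk by 1.60 and the zeta chain cd247 by 0.99; the calls of foxp3 and itk ended without Julidochromis ornatus or Telmatochromis vittatus, and that of cd247 also without either Lepidiolamprologus (adjusted p up to 0.0662, 0.0938 and 0.128). The tested members outside the threshold were cd2 at 0.85, ccr7 at 0.86 and gata3 at 0.90 (log2 fold change).

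The T cell counts depended on the libraries and on the makeup term. The list held 4 risen members without Julidochromis ornatus and 4 without Telmatochromis vittatus. With the covariate 2 of 10 were called higher, beside 1.48% of all features, and the list's median was 0.73. The 2 were bcl11b, which the covariate does not contain (log2 fold change 1.97, edgeR adjusted p = 0.019), and lck, which is part of it, as are cd3e, cd247 and ccr7. Within leukocyte-marker cells the gate genes, among them lck, cd3e, cd247 and ccr7, were left out of the test. There 2 of 6 were called higher, beside 4.95% of all features: bcl11b (log2 fold change 2.28, edgeR adjusted p = 5.1e-05) and tcf7 (1.47, 0.0065). The median was 1.09 beside -0.07 for all features there. As a description of the gate genes, lck had a median of 382 CPM in the leukocyte-marker cells of Lamprologini and 78.0 CPM in those of the others, while cd3e had 182 CPM and 116 CPM. Within epithelial-marker cells 0 of 5 tested list members were called, with a median of 0.73 beside -0.14 for all features there. In those cells lck had medians of 7.07 and 1.33 CPM, and cd3e 1.60 and 1.59 CPM. Carry-over of RNA between the classes was not tested. The share of T cells among leukocyte-marker cells was not measured, so a larger share and more RNA per cell cannot be told apart there. Other lymphoid lists had fewer tested genes, and over all features 5.48% were called higher. Of 3 tested cytotoxic lymphocyte genes 1 rose (runx3). Of 9 B or plasma cell genes 2 rose (the plasma cell factors irf4 and xbp1) with a median of -0.05. These 3 calls ended without some single Lamprologini libraries, with adjusted p up to 0.147 for runx3, 0.238 for irf4 and 0.295 for xbp1. The summed cytotoxic list had 6 of 6 Lamprologini above the other group's median, as did the summed T cell list. The summed B or plasma cell list ranged from 422 to 1485 CPM in Lamprologini and 299 to 842 CPM in the other cichlids, with 5 of 6 above that group's median. With the covariate 0 of its 9 genes were called higher and 2 lower, beside 1.48% and 1.43% of all features, with a median of -0.69. Within leukocyte-marker cells 0 of 7 were called higher and 1 lower, beside 4.95% and 3.37% of all features there. Of 9 macrophage or dendritic cell genes 1 rose (zbtb46, adjusted p up to 0.204 without single libraries), and of 7 granulocyte genes 0 were called.

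**Figure D2:**
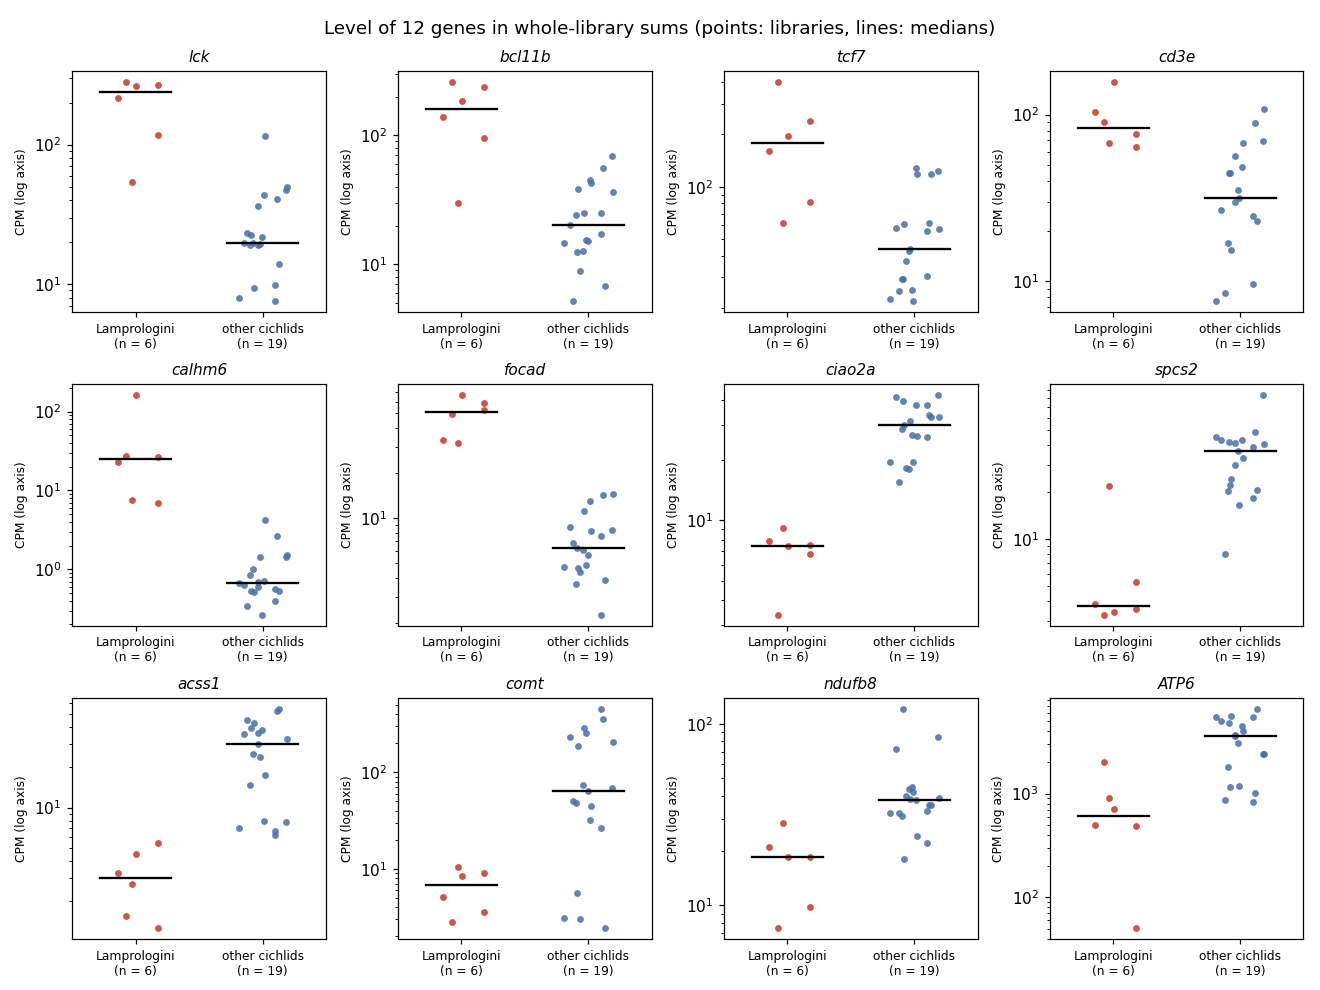
CPM on a log axis for 12 genes in whole-library sums, with 1 point per library, Lamprologini left and other cichlids right, and lines at group medians. For lck and bcl11b, 5 Lamprologini libraries lie above all other cichlids; focad and calhm6 lie wholly above and ciao2a and acss1 wholly below the other group.

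The 12 named genes with the smallest p among those higher in Lamprologini were focad, calhm6, lck, dgkq, ikbke, vsir, apbb1ip, bcl11b, pde7a, sec63, ndfip1 and cog1. Several are known for work in immune cells of mammals: vsir is an inhibitory receptor of the T cell response, apbb1ip links Rap1 to integrins, ikbke phosphorylates interferon regulatory factors, and pde7a degrades cAMP in T cells. The gene focad, coding for focadhesin, had 66.1, 58.5, 33.2, 52.6, 49.4 and 32.0 CPM in Lamprologini, against 2.28 to 14.4 CPM with a median of 6.28 in the other cichlids. The lowest Lamprologini library lay above the highest of the others (log2 fold change 2.89 ± 0.22, edgeR adjusted p = 3.47e-09). The difference was also called within epithelial-marker cells, at 2.55, and within leukocyte-marker cells, at 2.91. The channel gene calhm6 had 161, 26.7, 22.7, 6.96, 27.7 and 7.53 CPM in Lamprologini, against 0.267 to 4.28 CPM with a median of 0.672 in the others (5.48 ± 0.49, edgeR adjusted p = 5.79e-08). The groups did not overlap, and Lepidiolamprologus elongatus stood far above the other 5. In leukocyte-marker cells calhm6 was called at a log2 fold change of 5.10. Of the 12 genes, 12 were called with the makeup covariate and 11 of 11 tested in leukocyte-marker cells, but 2 of 10 tested in epithelial-marker cells, focad and the Golgi tethering subunit cog1. Whether the fold changes differ between the cell classes was not tested. None of these 12 calls ended when any 1 Lamprologini library was left out. The 12 were picked by p in these same libraries, so calls in these refits are no independent support. Of all features higher in whole libraries, 141 of 835 tested in epithelial-marker cells and 460 of 899 in leukocyte-marker cells were called higher there.

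**Figure D3:**
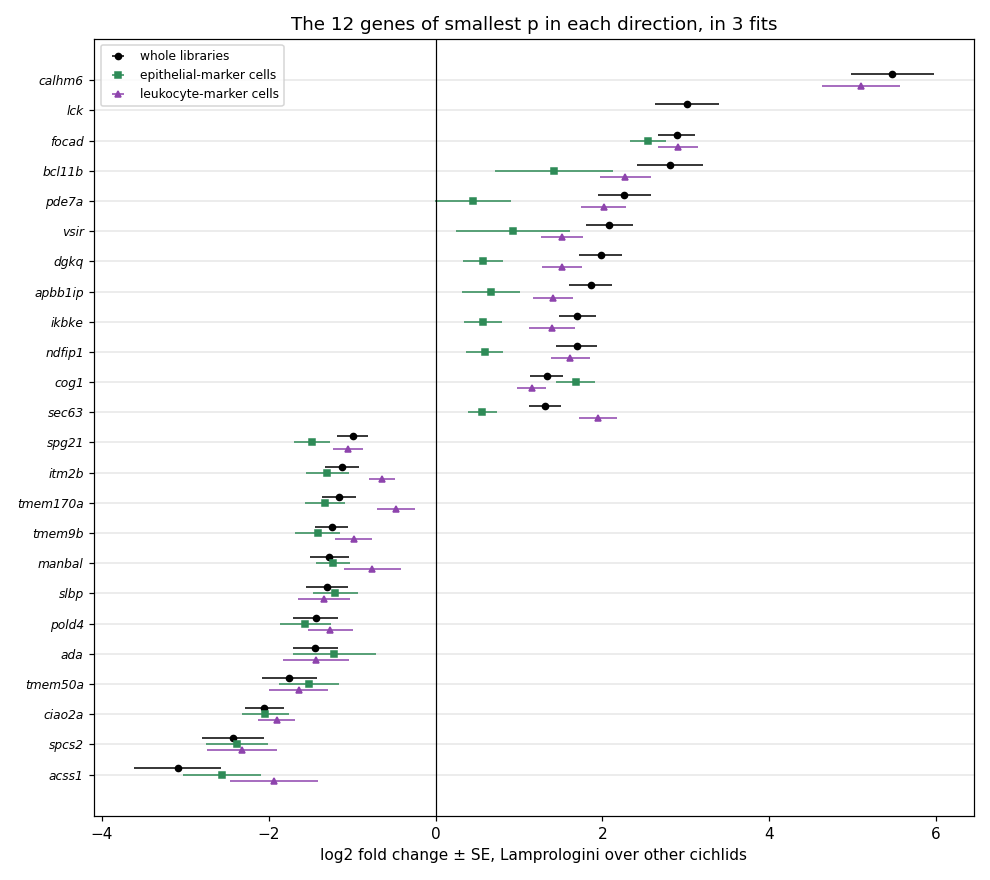
Log2 fold change ± SE, Lamprologini over other cichlids, of the 12 named genes of smallest p in each direction, in whole libraries, epithelial-marker cells and leukocyte-marker cells. In that order, ciao2a is at -2.05, -2.04 and -1.91, tmem170a at -1.16, -1.33 and -0.47, focad at 2.89, 2.55 and 2.91, and dgkq at 1.98, 0.57 and 1.51; differences between the fits were not tested.

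The 12 named genes with the smallest p among those lower in Lamprologini were ciao2a, spcs2, tmem9b, acss1, tmem170a, itm2b, manbal, pold4, tmem50a, ada, spg21 and slbp. With the covariate 12 of 12 were called, within epithelial-marker cells 11 of 12 (all but ada) and within leukocyte-marker cells 10 of 12 (all but tmem170a and manbal). No call ended without any 1 Lamprologini library. The 12 were picked by p in these same libraries, so calls in these refits are no independent support. Of all features lower in whole libraries, 173 of 857 tested in epithelial-marker cells and 273 of 708 in leukocyte-marker cells were called lower there. Whether reads of both groups match the reference alike at these 12 genes, or at the 12 higher in Lamprologini, was not tested. The gene ciao2a, which acts in cytosolic iron-sulfur protein assembly, had 7.46, 6.80, 7.89, 7.50, 3.38 and 9.16 CPM in Lamprologini, against 15.5 to 42.1 CPM with a median of 29.99 in the other cichlids. The groups did not overlap (log2 fold change -2.05 ± 0.23, edgeR adjusted p = 3.67e-06). The mitochondrial acetyl-CoA synthetase acss1 had 4.46, 1.26, 3.27, 5.47, 1.54 and 2.70 CPM in Lamprologini, against 6.18 to 54.6 CPM with a median of 29.7 in the others (-3.09 ± 0.52, edgeR adjusted p = 0.000716). Here too the groups did not overlap. The signal peptidase subunit spcs2 had 3.43, 5.29, 3.85, 3.58, 3.28 and 21.8 CPM in Lamprologini, against 8.07 to 83.8 CPM with a median of 37.0 in the others (-2.43 ± 0.37, edgeR adjusted p = 0.000273); 5 Lamprologini libraries lay below every other library and Neolamprologus brichardi did not. The DNA polymerase delta subunit pold4 had 9.33 to 15.001 CPM in Lamprologini and 17.8 to 67.7 CPM in the others, without overlap (-1.44 ± 0.27). Adenosine deaminase, ada, had 9.69 to 43.8 CPM in Lamprologini and 40.5 to 114 CPM in the others (-1.44 ± 0.27).

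Interferon and innate sensing genes rose in part. Of 16 tested interferon response genes 3 rose and 0 fell, with a median log2 fold change of 0.53. Over all features 5.48% were called higher and 4.9% lower, the shares beside the whole-library counts here. The RNA sensor regulator dhx58 had 26.6, 30.1, 44.2, 6.22, 54.3 and 35.7 CPM in Lamprologini, against 3.77 to 20.4 CPM with a median of 8.16 in the other cichlids (1.82 ± 0.31, edgeR adjusted p = 0.000826). Only Neolamprologus brevis of the 6 lay inside the other group's range. The antiviral helicase znfx1 had 292, 206, 321, 51.0, 641 and 212 CPM in Lamprologini, against 4.20 to 267 CPM with a median of 30.3 in the others (2.58 ± 0.54, edgeR adjusted p = 0.00432). The antiviral enzyme rsad2 rose by 1.89 on the log2 scale, a call that ended without Lepidiolamprologus elongatus, without Lepidiolamprologus attenuatus or without Telmatochromis vittatus, with adjusted p up to 0.223. Within leukocyte-marker cells 3 of 16 interferon genes were called higher, beside 4.95% of all features there. With the covariate 1 was called higher, dhx58, beside 1.48% of all features. Of 18 innate sensing genes, 5 rose: irak1 (1.47), relb (1.28), nfkb1 (1.23), myd88 (1.08) and tnip1 (0.61). The call of relb ended without Lepidiolamprologus elongatus, that of nfkb1 without Julidochromis ornatus, that of myd88 without Julidochromis ornatus or Telmatochromis vittatus, and that of tnip1 without each library but Lepidiolamprologus attenuatus (adjusted p up to 0.0514, 0.0788, 0.0949 and 0.170). The bacterial sensor nod1 fell by 1.95 and the antiviral adaptor mavs by 0.81 on the log2 scale, the second a call that ended without each library but Neolamprologus brichardi (adjusted p up to 0.118). None of the 5 risen genes and 1 of the fallen, nod1, was called with the covariate. The innate count was 2 risen without Julidochromis ornatus, 3 without Lepidiolamprologus elongatus and 3 without Telmatochromis vittatus.

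Among cytokines, chemokines and their receptors 4 of 11 rose and 0 fell, with a median log2 fold change of 0.86, and 0 were called with the covariate. Over all features in whole libraries 5.48% were called higher and 4.9% lower. The receptor il7r, which sustains naive and memory T cells, had 169, 373, 409, 222, 215 and 163 CPM in Lamprologini, against 13.1 to 256 CPM with a median of 67.8 in the other cichlids (1.72 ± 0.38, edgeR adjusted p = 0.00601). It was also called within leukocyte-marker cells, at 1.26. The other risen members were the receptor il17rb (2.41), the myeloid growth factor il34 (1.39) and the chemokine receptor cxcr4 (1.096). Their calls ended without some single libraries: il17rb without Lepidiolamprologus elongatus, where it stood at 125 CPM, il34 with adjusted p up to 0.100 and cxcr4 up to 0.171. The count of risen members was 1 without Lepidiolamprologus elongatus, 2 without Julidochromis ornatus and 2 without Telmatochromis vittatus. Of 9 genes of MHC and antigen presentation 0 rose and 2 fell, the proteasome activator subunits psme1 (-0.92) and psme2 (-0.94, adjusted p up to 0.110 without single libraries); the summed list overlapped, at 1490.4 to 4176 CPM in Lamprologini and 759 to 8598 CPM in the other cichlids.

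Nuclear genes of the respiratory chain were lower in the Lamprologini libraries. Of 46 tested members, 18 fell and 0 rose, 44 had a negative fold change, and the median log2 fold change was -0.76 beside -0.15 for all features. By symbol, 16 of the 18 that fell were among the 34 tested subunits of complex I, the first enzyme of the chain, and 2 among the 12 other members; this split was not tested. The subunit ndufb8 had 18.3, 9.82, 21.0, 18.4, 7.48 and 28.3 CPM in Lamprologini, against 18.006 to 121 CPM with a median of 38.0 in the other cichlids (-1.37 ± 0.32, edgeR adjusted p = 0.00999). All 6 lay below the other group's median, and 4 of them above its lowest library. The subunit ndufb4 had 30.5, 20.5, 38.0, 34.0, 15.9 and 34.4 CPM in Lamprologini, against 29.5 to 141 CPM with a median of 60.9 in the others (-1.16 ± 0.28, edgeR adjusted p = 0.0106). The summed list ranged from 2257 to 4549 CPM in Lamprologini and from 3117 to 12049 CPM in the other cichlids, with 0 of 6 above the other group's median. These calls depended on the library set: 3 members fell without Telmatochromis vittatus, 4 without Julidochromis ornatus, 7 without Lepidiolamprologus elongatus and 9 without Lepidiolamprologus attenuatus. With library totals in place of TMM 7 fell, with 1 unit per genus 6, and with DESeq2 26. Within epithelial-marker cells 0 of 46 were called, with a median of -0.50 beside -0.14 for all features there. Within leukocyte-marker cells 4 were called lower, beside 3.37% of all features there, with a median of -0.48 beside -0.07 for all features. With the covariate 1 was called lower, ndufb8, a count near the share of all features, 1.43%. The list's median was then -0.45, beside -0.03 for all features.

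Nuclear genes of the mitochondrial ribosome and the proteasome had negative medians. Of 73 nuclear genes of the mitochondrial ribosome, gathered by their symbols after the data had been seen, 16 fell and 1 rose, with a median log2 fold change of -0.66. Within epithelial-marker cells 2 of these 73 were called lower (2.74%, beside 1.38% of all features there) and 0 higher, and within leukocyte-marker cells 3 lower (4.11%, beside 3.37%, near the background) and 1 higher. Of 27 proteasome subunits 4 fell and 0 rose, with a median of -0.55, but the count was 0 with library totals and 0 without each of Julidochromis ornatus, Lepidiolamprologus attenuatus, Neolamprologus brevis and Telmatochromis vittatus, and 1 without Lepidiolamprologus elongatus. The 69 cytosolic ribosomal protein genes held 0 called in either direction in whole libraries, beside 10.4% of all features, with a median of 0.18. Within leukocyte-marker cells 4 of the 69 were called higher and 0 lower. That count lay near the share of all features called higher there, 4.95%. The 13 genes of the mitochondrial genome itself had a median of -0.26 in whole libraries, 0.16 in epithelial-marker cells, 0.35 in leukocyte-marker cells and 0.15 with the covariate, and 3 of 6 Lamprologini lay above the other group's median of their sum. Of them 2 fell: ND2, a subunit of complex I (-1.74 ± 0.44, edgeR adjusted p = 0.0145), and ATP6, a subunit of the ATP synthase (-1.998 ± 0.56, edgeR adjusted p = 0.0269). ATP6 had 717, 485, 499, 50.5, 2013 and 906 CPM in Lamprologini, against 824 to 6556 CPM with a median of 3556 in the other cichlids. Telmatochromis vittatus and Neolamprologus brichardi lay inside the range of the others, and the call ended without Lepidiolamprologus elongatus, Julidochromis ornatus or Lepidiolamprologus attenuatus (adjusted p up to 0.0741). The neighbouring gene ATP8 was at 0.08 and COX1 at -0.26 (log2 fold change, neither called). Whether sequence differences from the reference lower the counts of ND2 and ATP6 was not tested.

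**Figure D4:**
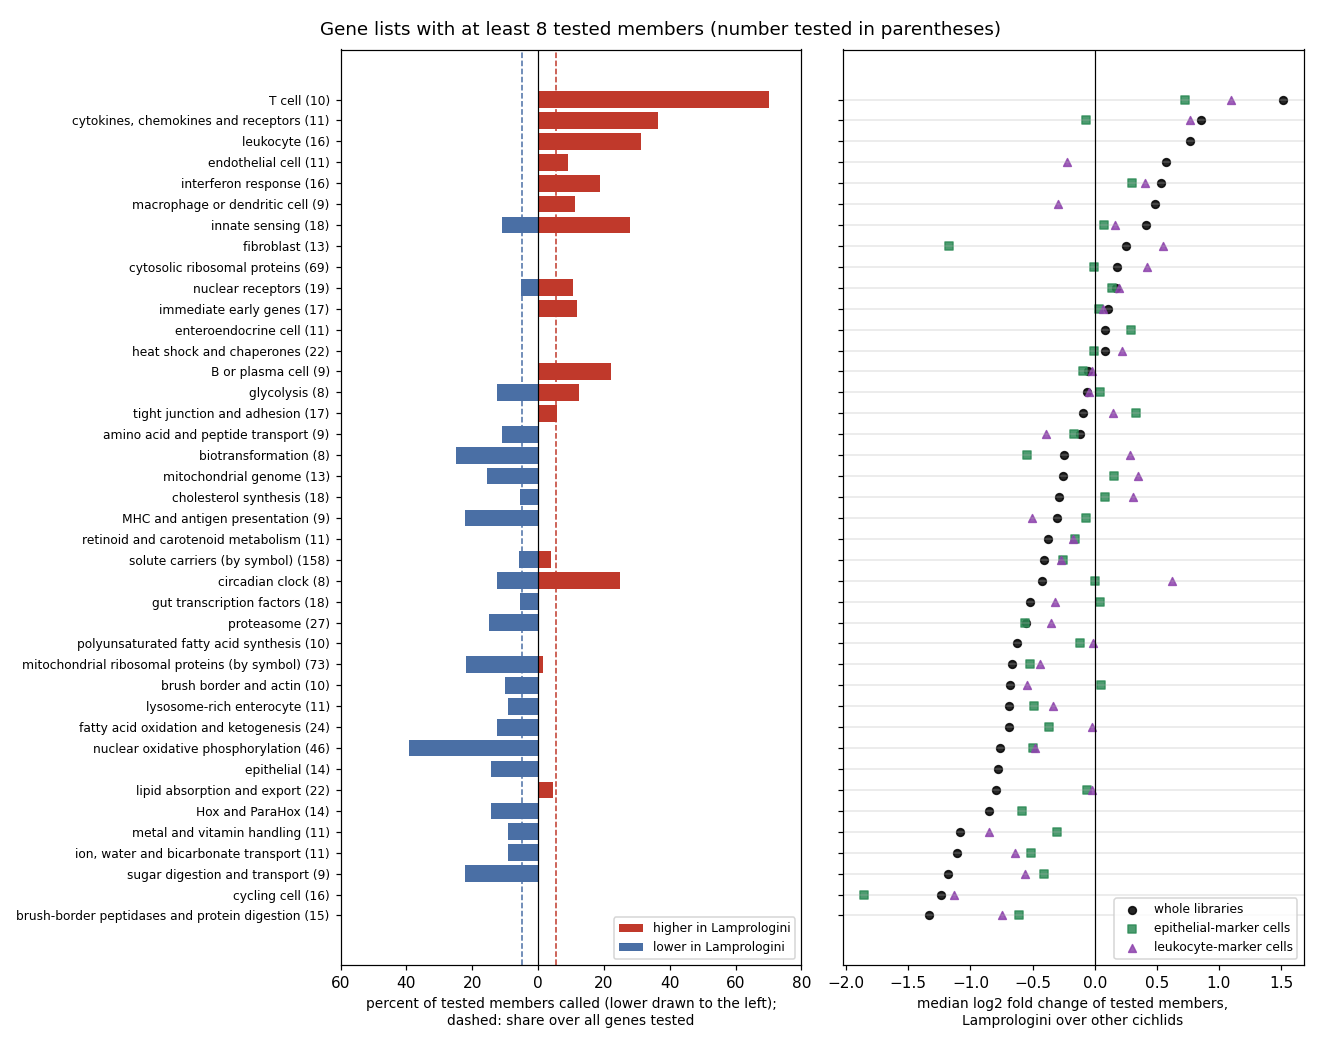
Left, percent of tested members called higher (drawn to the right) or lower (to the left) in Lamprologini for lists with at least 8 tested members, with dashed lines at 5.48% and 4.9% for all features. Right, median log2 fold change of each list in whole libraries, epithelial-marker and leukocyte-marker cells; T cell genes (1.51) lie at the top and brush-border peptidases (-1.33) at the bottom of the whole-library medians.

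The absorptive lists had negative medians in whole libraries, with few calls, and some medians turned with the makeup covariate. Over all features in whole libraries 5.48% were called higher and 4.9% lower. The 15 brush-border peptidases and protein digestion genes had a median log2 fold change of -1.33, with 14 negative values, yet 0 were called in either direction. Within leukocyte-marker cells 2 of the 12 tested were called lower, beside 3.37% of all features there. Summed, the 15 genes ranged from 324 to 1540.2 CPM in Lamprologini and 581 to 5418 CPM in the others, with 0 of 6 above the other group's median. Of 9 sugar digestion and transport genes 2 fell, the fructose kinase khk (-1.51) and the trehalose-cleaving enzyme treh (-2.52), with a median of -1.18. The fatty acid oxidation list had 3 of 24 fallen (eci1, acaa2 and etfdh) and 0 risen, with a median of -0.69. Of 22 lipid absorption and export genes 1 rose, the acyl-CoA synthetase acsl4 (0.95), and 0 fell, at a median of -0.80. The count risen lay near the share of all features called higher. The calls of treh, acaa2, etfdh, eci1 and acsl4 each ended without at least 3 single Lamprologini libraries, with adjusted p up to 0.0841, 0.0895, 0.110, 0.0693 and 0.114. Within epithelial-marker cells the medians were nearer to 0, at -0.61 for peptidases, -0.41 for sugar genes, -0.37 for fatty acid oxidation and -0.06 for lipid absorption, beside -0.14 for all features there; acaa2 was the member of these lists called in those cells. With the covariate the median was -0.17 for peptidases, with 1 called lower, and -0.24 for sugar genes, but 0.11 for fatty acid oxidation, with 1 called higher, and 0.74 for lipid absorption, beside -0.03 for all features. Over all features in that fit 1.48% were called higher and 1.43% lower.

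A few transport and biotransformation genes were far lower in Lamprologini. The sodium-chloride cotransporter slc12a3 had 0 UMIs in all 6 Lamprologini libraries, together 75342669 UMIs, which allows up to 0.0398 CPM for the group at 3 counts. In the other cichlids it ranged from 0 to 76.7 CPM with a median of 0.923: 9 libraries had at least 5 CPM and 2 had 0. The mean of the others was at least 306-fold higher than that limit (edgeR adjusted p = 0.0279), a call that ended without Lepidiolamprologus elongatus, Julidochromis ornatus, Lepidiolamprologus attenuatus or Telmatochromis vittatus (adjusted p up to 0.0604). Whether reads of each species match the reference alike at slc12a3 was not tested. The gene comt, which methylates catechols, had 8.44, 3.52, 5.10, 9.12, 2.77 and 10.5 CPM in Lamprologini, against 2.42 to 458 CPM with a median of 64.2 in the others (-4.22 ± 1.01, edgeR adjusted p = 0.0109). All 6 lay below the other group's median, but the groups overlapped. Within epithelial-marker cells comt had 0.118 to 1.75 CPM in Lamprologini and 0.134 to 676 CPM with a median of 95.5 in the others (log2 fold change -7.53, edgeR adjusted p = 0.011). The bile acid receptor nr1h4 fell by 1.91 on the log2 scale, a call that ended without each library but Neolamprologus brichardi (adjusted p up to 0.103). With the covariate nr1h4 was at -0.26, and within epithelial-marker cells at -0.93 (log2 fold change, neither called). Its intestinal target in mammals, the hormone fgf19, rose at 4.30, but this rested on Julidochromis ornatus: the 6 values were 2.39, 30.6, 0.674, 0.878, 0.205 and 0.639 CPM in Lamprologini, against 0 to 4.16 CPM with a median of 0.0495 in the others, and the adjusted p was 0.453 without that library.

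Few secretory, regional and proliferating cell markers passed the threshold, although the goblet, Hox and ParaHox, and cycling lists were mostly negative. Of 11 enteroendocrine genes 0 were called, with a median of 0.09, and of 6 goblet genes 1 fell, agr2 (-1.67), a call that ended without Lepidiolamprologus elongatus, Julidochromis ornatus, Lepidiolamprologus attenuatus or Telmatochromis vittatus (adjusted p up to 0.0775). All 6 goblet genes were negative, with a median of -0.44, and 0 of 6 Lamprologini lay above the other group's median of their sum. The 16 cycling-cell genes held 0 called although 16 were negative, with a median of -1.24; the kinase bub1, the member called within epithelial-marker cells, had a log2 fold change of -2.67 there and -1.86 in whole libraries (edgeR adjusted p 0.0437 and 0.0510). Of 14 tested members of a Hox and ParaHox list, genes that mark position along the gut, 2 fell: hoxc9 (-1.69) and hoxa10 (-1.82). The call of hoxa10 ended without each library but Lepidiolamprologus attenuatus (adjusted p up to 0.110). Over all features 4.9% were called lower. Of the 14, 13 were negative, with a median of -0.85 in whole libraries, -0.59 in epithelial-marker cells and -0.69 with the covariate. The labels do not say which stretch of intestine was taken, and whether it differed between the groups was not tested. Of 13 fibroblast, 5 smooth muscle, 2 erythrocyte, 2 pancreatic acinar and 5 neuron or glia genes tested, 0 were called. Over all features 10.4% were called in either direction, so lists this short say little about these cell types. Of 11 endothelial genes tested 1 was called, fli1 (2.64), which was also called within leukocyte-marker cells (2.12, edgeR adjusted p = 0.00777). Summed, the endothelial list had 3 of 6 Lamprologini above the other group's median.

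Among the features known only by a LOC identifier, the strongest differences were near presence and absence. LOC112845692 had 3063, 6162, 2617, 1971, 10279 and 11217 CPM in Lamprologini, against 1.27 to 15.9 CPM with a median of 5.26 in the other cichlids (log2 fold change 9.87 ± 0.46, edgeR adjusted p = 7.78e-14). It differed alike within epithelial-marker cells, with medians of 4645 CPM in Lamprologini and 4.14 CPM in the others, and within leukocyte-marker cells, with 3914 and 5.12 CPM. The 3 Lamprologini with the highest level, Neolamprologus brichardi, Telmatochromis vittatus and Julidochromis ornatus, also had the highest mitochondrial shares of UMIs of the 6, at 8.09%, 9.10% and 6.13%. In the other cichlids that share ranged from 1.95% to 10.6%, with at most 15.9 CPM of LOC112845692. This match was picked after the values were seen, and a relation to the mitochondrial share was not tested. LOC112845684 had 7.23 to 50.1 CPM in Lamprologini and 0 to 0.166 CPM in the others (8.89 ± 0.54). In the other direction, LOC100691646 had 0 in 5 Lamprologini libraries and 0.381 CPM in Lepidiolamprologus elongatus, against 0 to 216 CPM with a median of 24.1 in the others. LOC102078104 had 0 in 5 Lamprologini libraries and 0.0676 CPM in Neolamprologus brevis, against 0 to 45.1 CPM with a median of 18.2 in the others. These features carry no gene name in the sources used here, and whether they reflect expression or how well reads of each species match the reference was not tested.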

How the data were processed

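Dissociated intestine of 25 species was measured by 10x Chromium 3′ v3.1 single-cell RNA-seq, per the labels' protocols. The deposited values are unnormalized counts of UMIs for each feature in each barcode, which the authors made with Cell Ranger 5.0.0 per the file headers (5.0 in the submitters' processing notes). The other deposited columns, of unit other, hold barcodes and feature names. Genome build, annotation and cell-calling settings are not given in the sources used here.

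Counts were summed per library over barcodes with at least 500 UMIs and 250 genes, and libraries were the units. Groups followed the species label. Sums were tested with edgeR 4.0.16 (R 4.3.3; filterByExpr, TMM, robust quasi-likelihood, all 25 libraries), adjusted over all features tested; DESeq2 1.42.0 was an alternative. The edgeR test gives no SE. Each SE of a log2 fold change is its absolute value divided by the square root of the test's F statistic. The scripts were tested on simulated data. Library measures were tested by exact permutation of the group labels. Barcodes of Trematocara zebra and Haplotaxodon microlepis included some under 500 UMIs. Gene roles are those known in mammals.

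The members, the marker and gene lists and the tests were chosen with earlier results of these data known. Named genes are, among features with a gene name past the threshold and with a mean of at least 10 CPM in the higher group, the 12 of smallest p in each direction, plus up to 4 members past the threshold per list by smallest p, plus genes at 0 in all libraries of a group with a median of at least 5 CPM in the other, of which there were 0. Other genes named in the text, among them foxp3, itk, cd247, cd2, ccr7, gata3, myd88, mavs, tnip1, ATP8, COX1, epcam, ptprc and bub1, were chosen after their values were seen. Lists were matched by symbol, with or without a teleost suffix. Many listed symbols found no feature. Those matched were 16 of 34 leukocyte, 14 of 35 epithelial, 12 of 22 T cell and 3 of 14 cytotoxic lymphocyte symbols. For cytokines, chemokines and receptors 12 of 52 matched, for erythrocytes 2 of 13 and for pancreatic acinar cells 2 of 17.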

Additional observations from a re-analysis of the deposited data

Results flagged for a closer look

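In the 6 Lamprologini libraries, 90 values (the 85 named genes and library measures) were checked for a highest or lowest library far from the other 5, and 13 were flagged; chance alone flags about 1 in 20 such groups. Neolamprologus brichardi stood apart for 10 of them, always on the side of the other cichlids. It had the lowest level of pde7a, at 53.1 CPM, and the highest of 9 genes that were lower in Lamprologini: spcs2 (21.8 CPM), slbp (13.6 CPM), mfsd12 (4.33 CPM), msmo1 (30.1 CPM), psme2 (101 CPM), ndufb9 (79.0 CPM), psma3 (97.4 CPM), psmc6 (42.0 CPM) and psma2 (34.0 CPM). The same library had the lowest share of leukocyte-marker cells and the highest of epithelial-marker cells among the 6, at 45.5% and 35.2%. The part of this makeup in the levels was not tested. The genes were chosen for a difference between the groups, so the side on which a library stands apart is no independent result. Some share a list, such as psma2, psma3 and psmc6, so their flags are not independent of each other. Lepidiolamprologus elongatus stood apart for calhm6 at 161 CPM. Julidochromis ornatus stood apart for fgf19 at 30.6 CPM and for barcodes lost to the limit of 250 genes, at 37.3%.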

How the results depend on the processing

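Depth and the 6 Lamprologini libraries limit these results. The leukocyte-marker share and the distance among Lamprologini kept their direction and call under every alternative run. The epithelial-marker share kept its direction and an unadjusted exact p under 0.05, but without Julidochromis ornatus its p adjusted over 4 measures was 0.0670. Features higher numbered 471 with library totals in place of TMM, 622 with a mean CPM of at least 10 and 282 with the makeup covariate (479 to 1199 without single libraries); at least 2-fold, 436, 352 and 260 (422 to 896). Features lower numbered 457, 513 and 273, 1733 with DESeq2 and 291 with 1 unit per genus (327 to 921); at least 2-fold, 417, 302, 248, 1249 and 265 (280 to 752). In epithelial-marker cells DESeq2 called 472 higher and 703 lower, and without single libraries 139 to 247 were higher and 69 to 156 lower. In leukocyte-marker cells DESeq2 called 1026 lower, and without single libraries 247 to 1042 were higher and 137 to 813 lower. The difference in mitochondrial share turned to 1.26 points with no gene limit and 1.25 with all barcodes. The difference in features turned to -88.7 in 1000000 UMIs, and ran from -240 to 297 without single libraries. Signs turned for xbp1 (-0.18) and relb (-0.058) in epithelial-marker cells and for msmo1 (0.0044), acaa2 (0.24) and etfdh (0.24) in leukocyte-marker cells. The cause was not tested. Of 85 named genes, 31 were called under every whole-library alternative; by setting, 84 of 84 with DESeq2, 53 with 1 unit per genus, 57 with library totals, 34 with the covariate, and 50 to 83 without single libraries; 45 held without each library. No paired analysis was possible because each species has 1 library and replicate numbers only name libraries.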

Other observations

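Further named genes with at least 10 CPM in the higher group and large fold changes were picked after their values were seen, so they are a description. The prostaglandin synthase ptgs2 was at 0.410 to 33.4 CPM in Lamprologini and 0.0990 to 5.85 CPM in the other cichlids, a log2 fold change of 2.97 in whole libraries, 4.55 in epithelial-marker cells and 0.64 in leukocyte-marker cells. The thyroid hormone deiodinase dio1 was at 0.109 to 2.77 CPM in Lamprologini and 2.17 to 109 CPM in the others (-4.36). The solute carrier slc16a9 was at 0.615 to 8.45 CPM in Lamprologini and 2.97 to 956 CPM in the others (-5.91, and -1.61 with the makeup covariate). The peroxisomal racemase amacr was at 0.126 to 5.87 CPM in Lamprologini and 4.75 to 39.8 CPM in the others (-2.87). The adaptor dok3 was at 11.5 to 103 CPM in Lamprologini and 0.479 to 29.7 CPM in the others (3.11). The chromatin protein hmga1 was at 19.4 to 352 CPM in Lamprologini and 5.42 to 65.3 CPM in the others (2.92). Besides focad, calhm6, cog1 and sec63, the named genes with all 6 Lamprologini above all 19 others were ccni, sorl1, angptl4 and arf3. Those with all 6 below were ciao2a, acss1, pold4, tmem170a and znrd1.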
